A study of Mus musculus with 5 samples.

Results

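The genes described here belong to families that attach ubiquitin or its relatives to proteins, help to attach it, or take it off again. These are ubiquitin-conjugating enzymes (Ube2), ubiquitin-specific proteases (Usp), the ubiquitin C-terminal hydrolase Uchl1, F-box proteins (Fbxl, Fbxo and Fbxw) and cullins (Cul). The genes were chosen by symbol, with earlier results of these data known. Every gene of these families named by a probe with 1 gene symbol in the platform annotation was taken, except Ube2c. This gave 101 genes, measured by 129 probes, out of 9669 genes named on the array. They comprised 24 Ube2, 37 Usp, 1 Uchl, 8 Fbxl, 18 Fbxo, 8 Fbxw and 5 Cul genes. RefSeq lists 1 of them, Ube2d-ps, as a non-coding RNA and the others as protein-coding.

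NIH3T3, an immortalised line of mouse fibroblasts, was set against the same line with human ERBB2 (HER-2/NEU), a receptor tyrosine kinase, constitutively overexpressed from a cytomegalovirus promoter. Both lines were grown in the same serum-containing medium, and no drug or other treatment is named for either. RNA of both was hybridised together on each of 5 cDNA arrays, with the dyes Cy3 and Cy5. Preparation A gave arrays A1, A2 and A3 and preparation B gave B1 and B2, with the Erbb2-transfected cells in Cy3 on A1, A2 and B1 and in Cy5 on A3 and B2. The parental cells were un-transfected, so no vector control was among the groups. The labels do not say whether the transfected line is 1 clone or came from several, nor if each preparation was a culture of its own. The p-values therefore measure only the spread between these samples, which may be technical.

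Each value below is the log2 of the ratio of transfected to parental cells, so that 1 is a doubling. That the deposited ratios are Cy5 over Cy3 was inferred, since Cy5 is named as the first channel of every array. This makes the direction likely only, and with Cy3 over Cy5 every sign would turn. A gene was tested when it had a value in both dye orientations of both preparations. Its value is then the mean ± SD of the 2 preparations, each of them the average of its dye orientations, so the SD does not show the spread between orientations. Where A3, B1 or B2 was left out in a check below, a preparation kept a single dye orientation, and a dye effect no longer averages out. The arrays gave values for between 5368 (A1) and 17463 (B1) of 20205 probes, and the number of arrays limits the precision. No probe was named for Erbb2 alone, so the transgene itself was not checked here. Of 8 tested fibroblast markers 4 fell, namely Col1a1, Col1a2, Fn1 and Lox, and 0 rose. Of all tested features 4.54% fell and 2.25% rose. The other fibroblast markers tested, Vim, Col3a1, S100a4 and Fap, did not pass. They had 0.47 ± 0.32, 0.51 ± 0.99, -0.01 ± 0.28 and -0.60 ± 0.05 (SD, n = 2). The only tested markers of epithelium, leukocytes and endothelium, Krt19, Cd74 and Flt1, had 0.19 ± 0.13, 0.10 ± 0.88 and 0.16 ± 0.17 (SD, n = 2). A ratio does not show whether any of these genes was expressed at a high or a low level. The part of these markers in the results below was not tested.

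Ubiquitin is activated by an E1 enzyme, passed to an E2 of the Ube2 family and joined to a substrate with the help of an E3 ligase, which sets the specificity. In the largest class of E3 ligases a cullin is the scaffold, and for Cul1 the substrate is brought in by an F-box protein bound through Skp1. Deubiquitinases, of which the Usp proteins are the largest family, cut ubiquitin from substrates or trim its chains. Receptor tyrosine kinases such as ERBB2 are themselves ubiquitinated, which directs them to lysosomes.

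Of the 40 members that could be tested, 0 were called by limma (adjusted p under 0.05), against 6.79% of all 4892 tested features. The test with 5 arrays as replicates and a dye term also called 0 of 40, against 9.44% of features. It counts arrays of the same preparation as independent, which they are not, so its p-values are likely too small. At an unadjusted p under 0.05 there were 6 members, against 22.9% of features. Of these, 4 were above 0 (Usp2, Usp19, Cul4a and Usp36), where 9.77% of features were, and 2 below (Usp10 and Usp26), where 13.1% were. On the 5 arrays 6 members had an unadjusted p under 0.05, against 25.1% of features. The smallest adjusted p among members was 0.11 (Usp10), and 0.0531 on the 5 arrays (Usp19).

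The member values were small in size. They ran from -0.60 (Usp10) to 0.63 (Usp2), a range that also held 87.1% of all tested features. No member reached a 2-fold change in the mean of the preparations, against 3.92% of features. The median was 0.12 over the 40 members and -0.02 over all features. It was 0.05 over the 52 members tested without A3 and 0.06 over the 43 tested without B1, which are other sets of genes. Without regard to sign, the median size was 0.24 over the 40 members and 0.25 over all features. Of the members, 23 lay above 0 and 17 below. The 95% interval of the mean lay within a 2-fold change in either direction for 37 of 40 members, against 81.8% of all features. The 3 exceptions were Usp2, Usp10 and Usp19, whose intervals reached 1.15, -1.05 and 1.01. Half-widths of these intervals were 0.45 to 0.52 on the log2 scale and rest mostly on the variance pooled over features, since each gene leaves 1 residual degree of freedom. Shifts smaller than this could thus not be told from 0 here even before adjustment. A call after adjustment needed a larger shift: the intervals of Usp2, Usp10 and Usp19 excluded 0, but none of them was called.

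**Figure D1:**
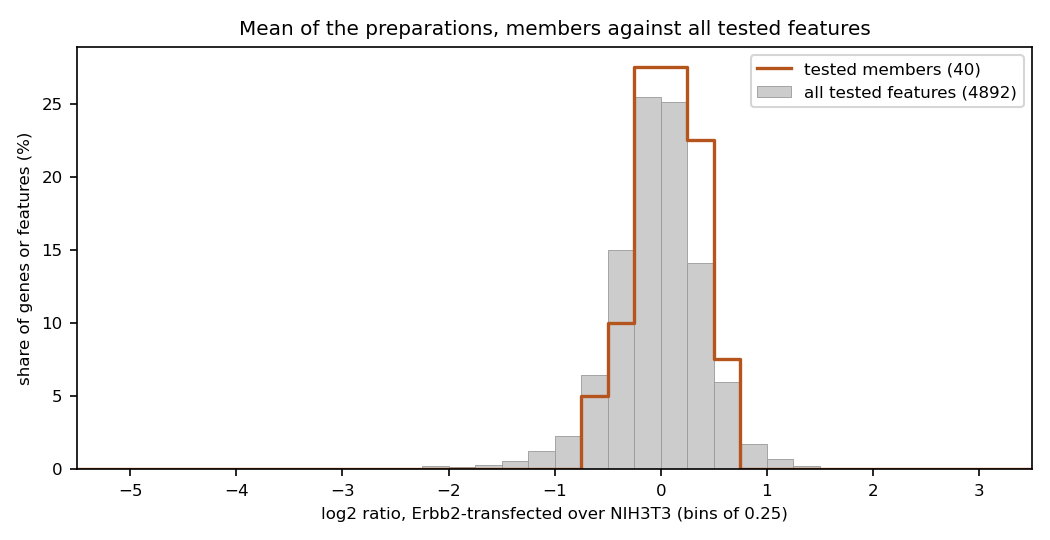
Share of tested members (orange line, 40 genes) and of all tested features (grey bars, 4892) by log2 ratio, as the mean of the preparations in bins of 0.25. The members lie between -0.60 and 0.63, and the tails of the features, which reach past 2-fold on both sides, hold none of them.

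Among the ubiquitin-conjugating enzymes 17 of 24 were tested, with a median of 0.19, 9 above 0 and 8 below. The median was 0.01 over the 18 enzymes tested without B1 and 0.05 over the 19 tested without A3. All 17 had intervals within a 2-fold change. Ube2h, the partner of the CTLH ligase complex, had the largest ratio in size. Its values were -0.77 on A1, -0.68 on A2, 0.33 on A3, -0.60 on B1 and -0.53 on B2, a mean of -0.38 ± 0.26 (SD, n = 2; limma adjusted p = 0.32). Thus 4 arrays were low and A3 lay on the other side of 0. The A3 value came from 1 of the 2 probes, which on A2 read -0.22 where the other read -1.14, and the B2 value came from the other probe alone. Without A3 the mean was -0.64.

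Ube2s, which extends ubiquitin chains with the anaphase-promoting complex, was above 0 on every array, at 0.28, 1.02 and 0.17 in preparation A and 0.07 and 0.58 in preparation B. Its mean was 0.37 ± 0.06 (SD, n = 2; limma adjusted p = 0.32). Ube2f, which carries the ubiquitin-like protein Nedd8 to cullins, was likewise above 0 throughout, with 0.72, 0.23, 0.42, 0.45 and 0.10 in the same order and a mean of 0.36 ± 0.12 (SD, n = 2). Ube2k, which builds chains for proteasomal degradation, had 0.35, 0.18, 0.20, 0.11 and 0.26 and a mean of 0.21. These 3 were the conjugating enzymes with 1 sign above 0 on all 5 arrays. Ube2l6, the conjugating enzyme of the interferon-induced modifier Isg15, was the 1 enzyme below 0 on all arrays, at -0.87 and -0.67 on A1 and A2 but only -0.04, -0.07 and -0.23 on A3, B1 and B2. Its mean was -0.28 ± 0.18 (SD, n = 2), with an interval from -0.73 to 0.18.

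Ube2g2, Ube2j1 and Ube2j2 act in degradation from the endoplasmic reticulum, and none was called. Ube2g2, with a mean of 0.27, had 0.77, 1.47 and 0.63 with Erbb2 cells in Cy3 (A1, A2, B1) but -0.36 and -0.30 with them in Cy5 (A3, B2). Ube2j1 had 0.28 ± 0.52, with 0.65 in preparation A and -0.09 in preparation B, and Ube2j2 had -0.01. Ube2n and Ube2v1, which act as a pair to build the chains used in signalling and DNA repair, had the same mean of 0.24. On single arrays the pair differed, with 0.45 and -0.08 on A1, and 1.31 and 0.78 on A2. Ube2a and Ube2b, close relatives that modify chromatin in DNA repair, had -0.07 and -0.18. Ube2d1 and Ube2d3, enzymes used by many ligases, had 0.19 and -0.08, while Ube2r2, a partner of cullin ligases, had -0.12. Ube2w, which modifies the amino terminus of proteins, had 0.23 and Ube2l3, a partner of HECT and RBR ligases, -0.05. Ube2a and Ube2b, like Ube2d1 and Ube2d3, are close relatives in sequence, so cDNA probes may share signal between them and the separate values are uncertain.

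Of the ubiquitin-specific proteases 15 of 37 were tested, with a median of -0.07, 7 above 0 and 8 below. The sign of this median was not the same over other sets. It was 0.03 over 14 probes taken each on its own, over 14 genes with both orientations required of a probe, and over 19 genes without A3. The 3 largest ratios among the 40 tested members were in this family. Usp2, a protease with circadian expression in many tissues, was above 0 on all 5 arrays, at 1.67 on A1, 0.19 on A2, 1.15 on A3, 0.35 on B1 and 0.11 on B2. The mean was 0.63 ± 0.57 (SD, n = 2; limma adjusted p = 0.143), with an interval from 0.11 to 1.15. The high values were 2 arrays of preparation A, while the third array of that preparation lay between those of preparation B.

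Usp19, which has a form anchored in the endoplasmic reticulum membrane, showed the least spread of the larger ratios. The arrays of preparation A gave 0.81, 0.62 and 0.48 and those of preparation B 0.40 and 0.65, a mean of 0.56 ± 0.05 (SD, n = 2), or 1.48-fold. All 5 arrays were above 0, and the means by dye orientation were 0.56 with Erbb2 cells in Cy3 and 0.57 in Cy5. The limma adjusted p was 0.13 on preparation means and 0.0531 on 5 arrays, so Usp19 did not pass either test. Its interval ran from 0.12 to 1.01.

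Usp10, which deubiquitinates p53 and binds the stress granule protein G3bp, had the lowest ratio. It had no value on A1 and -0.24, -0.84, 0.07 and -1.39 on A2, A3, B1 and B2, a mean of -0.60 ± 0.09 (SD, n = 2; limma adjusted p = 0.11). The small SD hides the dyes: the mean was -0.08 with Erbb2 cells in Cy3 and -1.12 with these cells in Cy5, and the low values were the 2 arrays of the second orientation. Without B2 the mean was -0.23, and without B1 it was -0.97. The unadjusted p of the dye effect was 0.0289, and its adjusted p 0.316. Usp26, a gene known from testis, had values near 0 on A1, A3 and B1 (0.09, -0.07 and -0.01) but -0.89 on A2 and -1.54 on B2, for a mean of -0.50 ± 0.38 (SD, n = 2), which was -0.12 without B2 and -0.89 without B1.

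Usp36, a nucleolar protease, was above 0 on all arrays, with 0.91, 0.81, 0.46, 0.46 and 0.14 on A1, A2, A3, B1 and B2 and a mean of 0.48 ± 0.25 (SD, n = 2; limma adjusted p = 0.204). Usp2, Usp19 and Usp36 were the 3 tested proteases with 1 sign on every array. Usp35 had 0.40, with only A2 below 0, at -0.19. Usp20 had 0.38, with A2 and B1 below 0, at -0.34 and -0.10, and A3 and B2 at 0.98 and 0.97. Usp1, which acts on monoubiquitinated DNA repair proteins, had -0.32 ± 0.17, with A2 at 0.49 and the other 3 arrays with a value below 0. Usp42 had 0.15, with 0.72, 0.66 and 0.92 where Erbb2 cells were in Cy3 but -0.40 and -0.62 where they were in Cy5.

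Usp8, which deubiquitinates receptors such as EGFR on endosomes, had 0.18, 0.03 and -0.45 in preparation A and -0.25 and 0.21 in preparation B. Its mean was -0.10 ± 0.11 (SD, n = 2), with an interval from -0.55 to 0.35. Usp7, which acts on p53 and Mdm2, had -0.07, and Usp16, a histone H2A deubiquitinase, 0.10. Usp15, Usp47 and Usp48 had -0.15, -0.19 and -0.25. For all of these the interval included 0.

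The F-box proteins were less well covered. Of 18 Fbxo genes 6 were tested, with a median of 0.15, and 0 of 8 Fbxl and 0 of 8 Fbxw genes were. Fbxo25 had -0.59 on A1 and 0.61, 0.76, 0.38 and 0.22 on A2, A3, B1 and B2, a mean of 0.34 ± 0.06 (SD, n = 2; limma adjusted p = 0.352). It was 0.16 without A3 and 0.19 without A2. Fbxo33 had 0.22 ± 0.53, with all 3 arrays of preparation A above 0 (0.87, 0.37 and 0.58) and B1 and B2 at 0.08 and -0.39. Fbxo9 had 0.21 ± 0.23, with only A3 below 0, at -0.27. Fbxo5, the inhibitor of the anaphase-promoting complex also called Emi1, had 0.25, 0.67 and 0.43 in preparation A and -0.31 and -0.27 in preparation B, for a mean of 0.08 ± 0.52 (SD, n = 2). All arrays of preparation A were thus above 0 and both of preparation B below, and the difference between preparations did not pass limma's test (adjusted p = 0.752). Fbxo34 and Fbxo42 had 0.02 and -0.19.

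Both tested cullins lay above 0. Cul4a, the scaffold that binds Ddb1, had 0.61, 0.62, -0.02, 0.48 and 0.99 on A1, A2, A3, B1 and B2, a mean of 0.52 ± 0.31 (SD, n = 2; limma adjusted p = 0.179). Of the 5 arrays, 4 were clearly above 0 and A3 was at 0. Cul1, the scaffold of the F-box ligases, was above 0 on all arrays, at 1.13, 0.37, 0.10, 0.48 and 0.13, with a mean of 0.36 ± 0.09 (SD, n = 2). Its high value was A1, and its interval ran from -0.08 to 0.81.

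**Figure D2:**
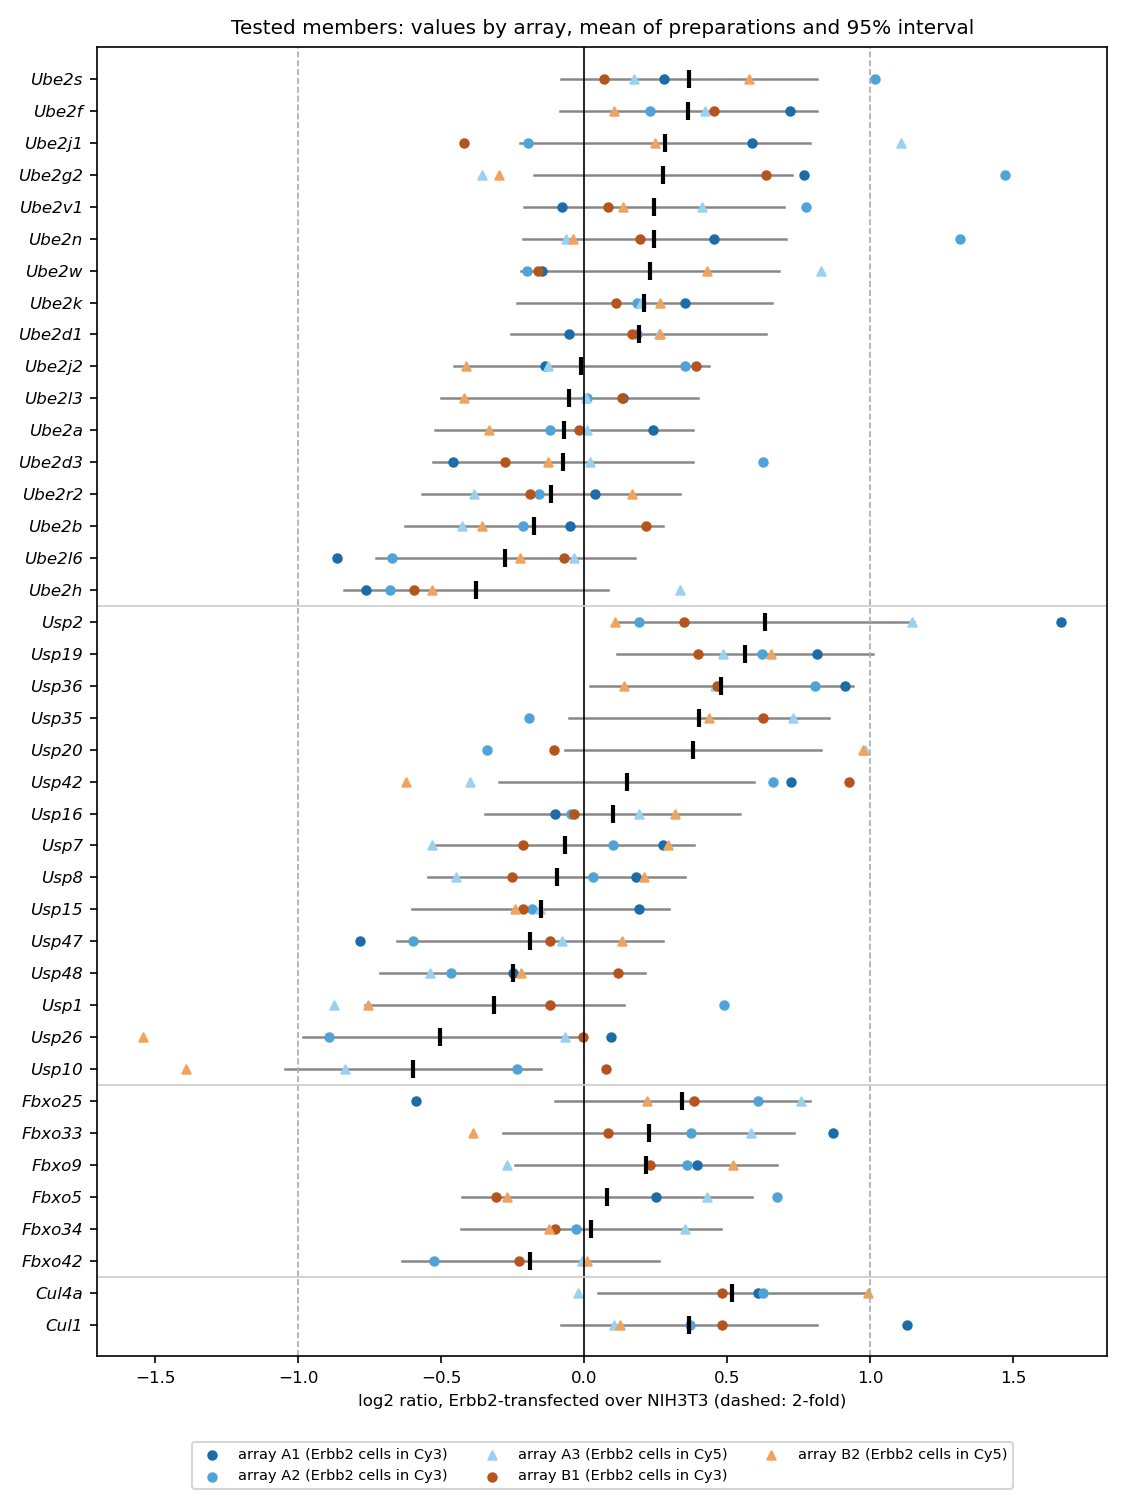
Log2 ratios of the 40 tested members on each array (blue, preparation A; orange, preparation B; circles, Erbb2-transfected cells in Cy3; triangles, in Cy5), with the mean of the preparations (black bar) and its 95% interval (grey line). Means lie between -0.60 and 0.63, while single arrays reach 1.67 (Usp2) and -1.54 (Usp26).

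Values on single arrays were spread wider than the means. Of 327 gene values on single arrays, 14 (4.28%) were 2-fold or more from 0, against 10.1% of the values of all features. By array there were 3 of 47 on A1, 5 of 68 on A2, 2 of 50 on A3, 1 of 90 on B1 and 3 of 72 on B2, where the share among all features was 15.4%, 12.4%, 11.9%, 5.24% and 11.2%. Of the tested members 8 had 1 sign on every array with a value, 7 above 0 (Ube2s, Ube2f, Ube2k, Usp2, Usp19, Usp36 and Cul1) and 1 below (Ube2l6). This is 20% of members against 24.3% of all tested features. The preparations gave the same sign for 31 of 40 members. Leaving out single arrays moved the mean by more than 1.5 times for 31 of the 40 members and turned its sign for 10, all of which had means smaller than 0.32 in size. Usp2, Usp19, Usp36, Cul4a, Cul1 and Ube2f, among the larger ratios, moved less than that. Without A3, B1 or B2 a preparation kept a single dye orientation, so these shifts also take in any dye effect. No share over all features is given for the counts by preparation and by array left out. They are thus not read as particular to the members.

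Dye orientation was examined next. In 14 of the 40 members (35%) the mean changed sign between dye orientations, against 40.7% of features. Usp42, Ube2g2, Usp20, Usp10, Usp1 and Ube2w had an unadjusted p under 0.05 in limma's test of the dye effect, which is 6 of 40 against 13.2% of features. None passed after adjustment (smallest adjusted p = 0.148, Usp42), where 0.593% of features did. Usp20 had -0.34 on A2 and -0.10 on B1, against 0.98 on A3 and 0.97 on B2. Without array A1, Ube2g2 and Usp42 passed the dye test, with limma adjusted p of 0.0292 and 0.041. That fit had 84.0 prior degrees of freedom, so its p-values rest mostly on the variance pooled over features. The number of all features that passed also varied widely with the array left out, with the range given in the closing section. These calls are therefore not read as particular to the members. In limma's test between preparations 0 of 40 members differed after adjustment and 0 at an unadjusted p under 0.05, where 0.0204% and 6.75% of features did.

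Across the members' probes, arrays of the same dye orientation correlated with r between 0.36 and 0.47 (4 pairs, 49 to 72 probes each), and arrays of opposite orientation between -0.09 and 0.33 (6 pairs, 35 to 70 probes). Across all probes the ranges were 0.45 to 0.52 and 0.17 to 0.54. These are correlations across genes, which are not independent replicates, and the arrays of a pair share the probes, the platform and in part the RNA.

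**Figure D3:**
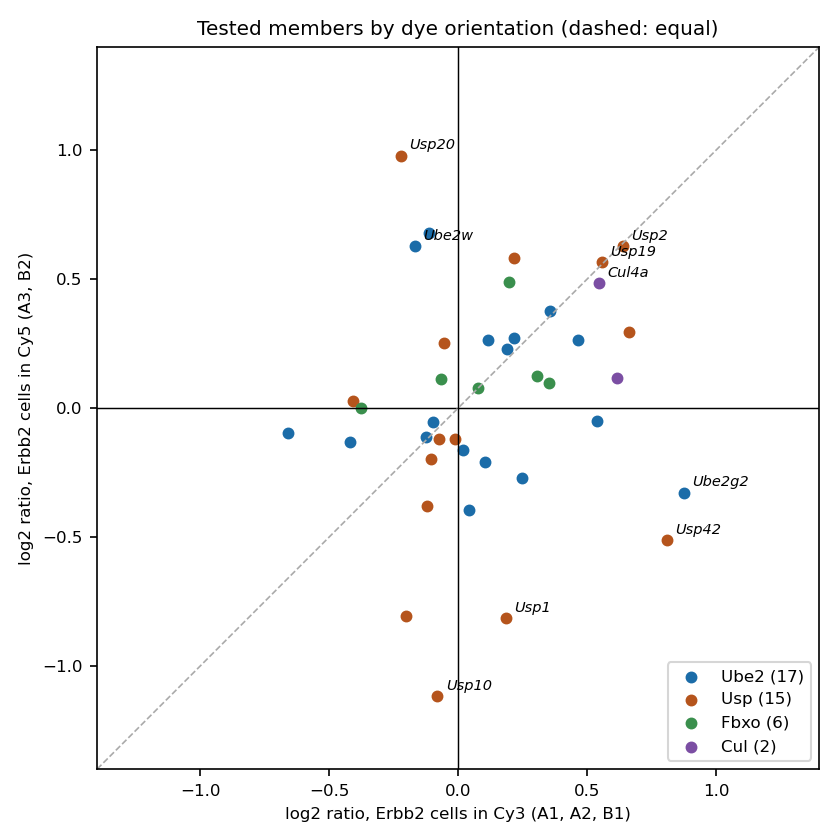
Mean log2 ratio of each tested member with Erbb2-transfected cells in Cy3 (horizontal) and in Cy5 (vertical), preparations weighted equally; the dashed line marks equal values. Usp19 and Usp2 lie near the line at about 0.6, while Usp42 (0.81 and -0.51) and Usp20 (-0.22 and 0.98) lie in quadrants of opposite sign.

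Several members had more than 1 probe, 21 in all. For 18 of them, probes of a gene could be set side by side on the same array, in 34 cases. The lowest and highest probe differed by a median of 0.50 on the log2 scale, and by more than 1 in 3 cases. The widest gap was that of Ube2l3 on A3, where a pair of its 4 probes read -0.60 and 0.62. For Ube2b on B2 the probes ran from -0.93 to 0.17. The median gap between probes of 1 gene was larger than the size of the mean ratio of most tested members.

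A further 58 members had values but not in both dye orientations of both preparations, and 48 of these had no value on A3. Of the 44 measured on more than 1 array, 12 were above 0 on each of them, 6 below and 26 on both sides. The remaining 14 were measured on 1 array only, 13 of them on B1, where they ran from -0.96 (Ube2ql1) to 0.19 (Usp3), 10 below 0 and 3 above. Ube2d2a, Usp39 and Usp50 had no value on any array. When a value in each preparation sufficed, whatever its orientation, 33 of the 58 could be tested, in a fit where a dye effect no longer averages out. Of the 73 members in that fit 0 were called by limma, against 1.26% of 11817 features, and 5 had an unadjusted p under 0.05, against 15.9% of features. The other 25 members with values have no test here.

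Cul7, a cullin that pairs with Fbxw8, was the only one of the 58 with a mean past 2-fold, at 1.08 on A2 and 1.18 on B1, both with Erbb2 cells in Cy3. In the fit on any orientation its mean of 1.13 ± 0.07 (SD, n = 2) had the smallest adjusted p of all members there (limma adjusted p = 0.0626), and its interval ran from 0.60 to 1.67. On single arrays of the series as a whole, 12.4% of features on A2 and 5.24% on B1 were 2-fold or more from 0. Fbxw8 itself had 0.52 on B1 and 0.62 on B2, in opposite orientations. Cul5, the scaffold for SOCS-box ligases, had 0.07 and 0.35 on B1 and B2. Cul9, which binds p53, had -1.24 on A1 against 0.09 on A2 and -0.12 on B1.

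Of the remaining Fbxw genes, Fbxw11, a beta-TrCP protein that recognises phosphorylated beta-catenin and I-kappa-B, had 0.83 on B1 and 0.23 on B2. Fbxw4 had 0.94, 0.62 and 0.00 on A2, B1 and B2. Fbxw5 was below 0 on 3 arrays, between -0.20 and -0.07, and Fbxw2, Fbxw10, Fbxw17 and Fbxw18 had both signs. In the Fbxl family only Fbxl14, which targets the transcription factor Snai1, had 1 sign on more than 1 array, with 0.08 and 0.61 on B1 and B2. Fbxl8, Fbxl15 and Fbxl17 had both signs, and Fbxl12 had -0.87 on B1 alone.

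Among Fbxo genes, Fbxo44 had 0.59 and 0.61 on A1 and A2, arrays of the same preparation and orientation. Fbxo28 had 0.72 on A2 and 0.26 on B1, where its 2 probes read 0.65 and -0.12. Fbxo2, which binds N-glycans on misfolded glycoproteins, had 0.29 and 0.65 on A3 and B2. Its relative Fbxo6, with the same kind of ligand, had -0.70, -0.55 and -0.03 on A2, B1 and B2. The pair was measured on different arrays apart from B2. Fbxo46 had 0.75, 0.11 and 0.34 on A2, B1 and B2, and Fbxo36 lay between -0.18 and -0.03 on 3 arrays.

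Of the less covered proteases Usp9x, which stabilises the survival factor Mcl1, had 0.64, 1.30 and 0.04 on A1, A2 and B1. The high value was A2, and all 3 arrays had Erbb2 cells in Cy3. Usp44, a mitotic checkpoint protease, had -0.36 and -0.38 on A3 and B2, both in the other orientation, and Usp25 had -0.35 and -0.02 on B1 and B2. These 3 had 1 sign wherever more than 1 array gave a value, and 10 more had both signs. Among those, Usp24 spread from -0.78 on A1 to 0.38 on A2 and Usp11 from -0.92 on B2 to 0.20 on B1. Usp5, which takes apart free ubiquitin chains, had -0.06, 0.44 and 0.65 on A1, A2 and B1, and Usp40 had 0.35, -0.15, 0.36 and 0.66 on A1, A2, B1 and B2.

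Uchl1, a hydrolase abundant in neurons, had -0.12 on B1 and 0.27 on B2, on both sides of 0. Among the less covered conjugating enzymes Ube2u had 0.48 and 1.05 on B1 and B2, and Ube2q1 had -0.21 and -0.54. Ube2o, which combines conjugating and ligase activity, had 0.58, 0.06, -0.20 and 0.52 on A1, A2, B1 and B2. Ube2z, which takes ubiquitin from the E1 enzyme Uba6, had 0.53, 0.32 and 0.51 on A1, A2 and B2, with B1 just below 0. Ube2d-ps had 0.07, -0.34 and -0.28 on A2, A3 and B2, and on B2 its probes read -0.85 and 0.29.

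**Figure D4:**
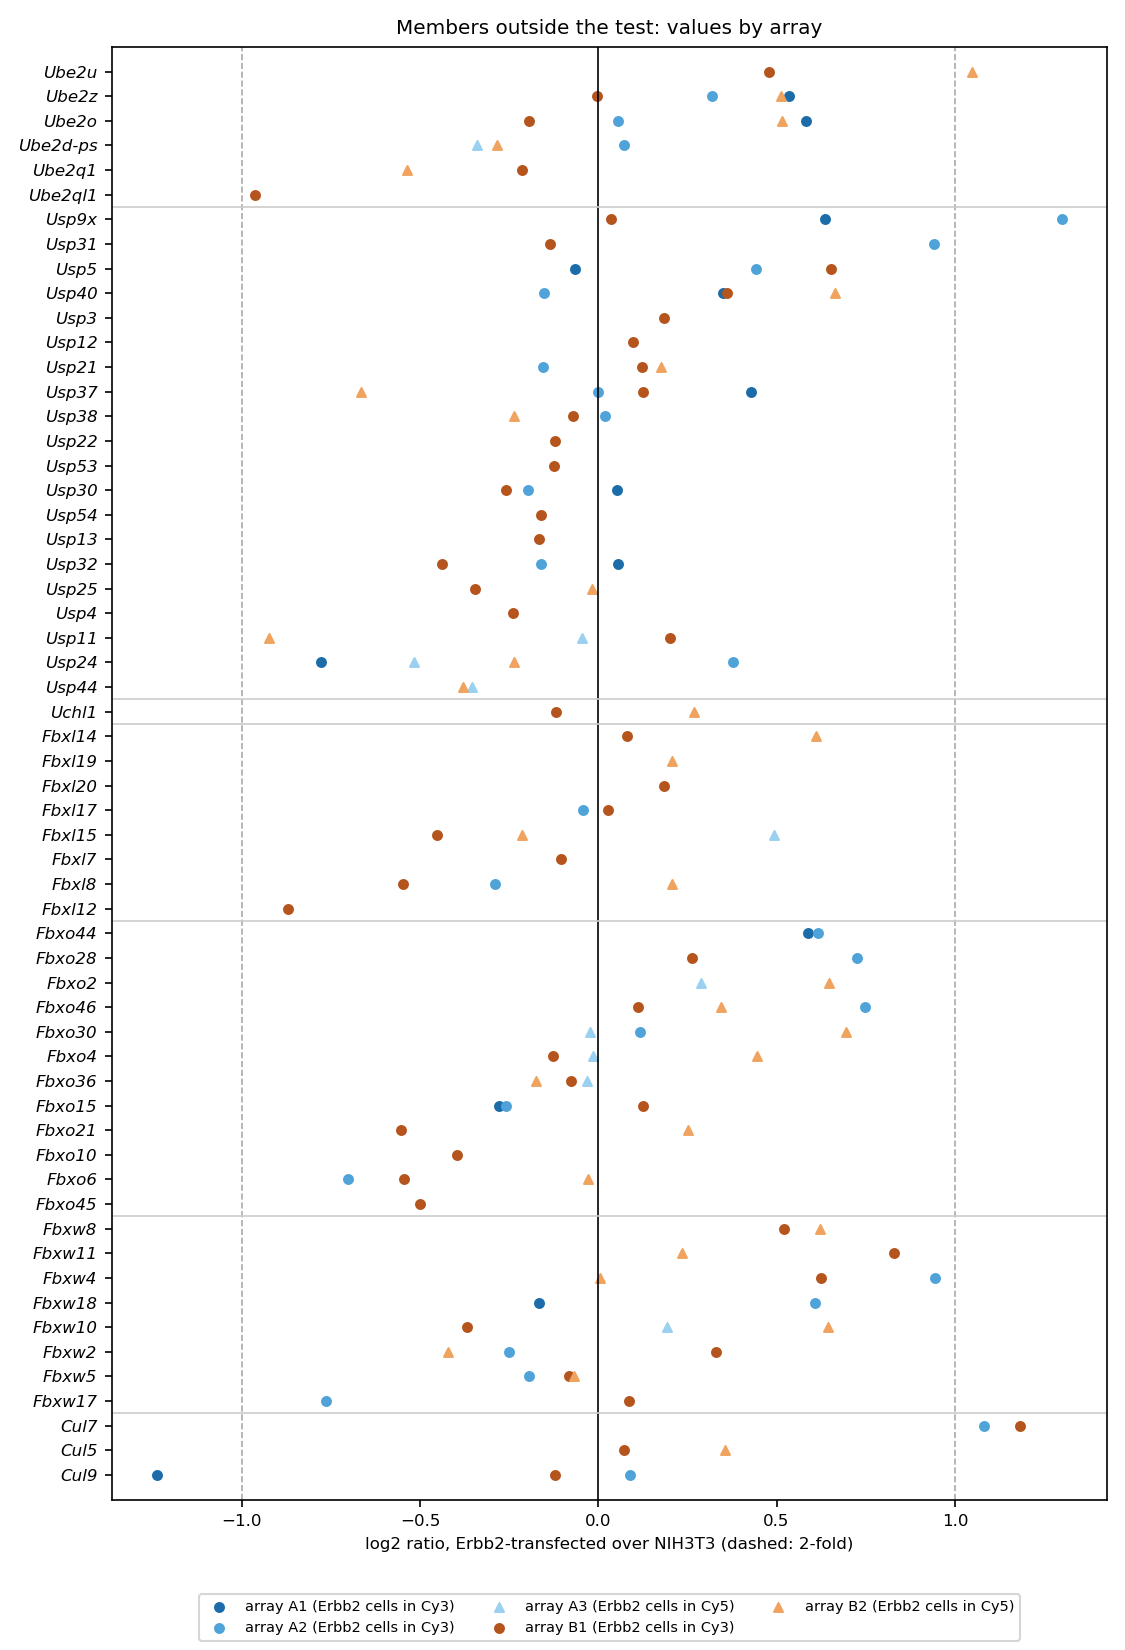
Log2 ratios of the 58 members outside the test on each array with a value (blue, preparation A; orange, preparation B; circles, Erbb2-transfected cells in Cy3; triangles, in Cy5). Of the 44 with more than 1 array, 26 lie on both sides of 0, and only Cul7 has a mean past 2-fold.

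The wider pathway was taken from 9 lists of genes outside these families. Of 61 tested genes 1 rose and 1 fell, and 59 did not pass, with a median of -0.01. Over all features 2.25% were called higher and 4.54% lower. Traf6, a RING ligase that joins receptor signals to NF-kappa-B, was the gene that rose. It had 1.29, 1.06, 0.64 and 0.91 on A2, A3, B1 and B2, with no value on A1, and a mean of 0.97 ± 0.28 (SD, n = 2; limma adjusted p = 0.0194). All 4 arrays were above 0. Traf6 was not called without A3 (1.03, adjusted p = 0.0622), without B1 (1.04, 0.0541) or without B2 (0.91, 0.0594). It was also not called with arrays scaled to equal spread (1.00, 0.0577) or with any orientation accepted (0.97, 0.103), so the ratio kept its size where the call was lost.

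Cyld, a deubiquitinase known to restrain NF-kappa-B signalling, was the gene that fell. The arrays of preparation A gave -0.92, -0.48 and -2.22 and those of preparation B -0.37 and -1.81, a mean of -1.27 ± 0.26 (SD, n = 2), or 2.42-fold lower (limma adjusted p = 0.00472). All arrays were below 0, but the 2 with Erbb2 cells in Cy5 were the lowest, and the unadjusted p of the dye effect was 0.00119 (adjusted p = 0.1). Without A3 the ratio was -0.89 (limma adjusted p = 0.114) and without B2 it was -0.91, and Cyld was called in neither fit. In both, a preparation kept a single dye orientation, so a dye effect no longer averages out.

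By list, 17 RING and U-box ligases were tested, of which 1 rose (Traf6), 0 fell and 16 did not pass. Of the 6 other deubiquitinases and SUMO proteases tested, 1 fell (Cyld), 0 rose and 5 did not pass. In the remaining lists 0 genes rose and 0 fell: 8 HECT ligases, 9 adaptors and regulators of cullin ligases, 7 ubiquitin receptors and p97 factors, 7 subunits of the anaphase-promoting complex, 4 ubiquitin-like modifiers, 3 subunits of the COP9 signalosome and 1 E1-like gene were tested. At an unadjusted p under 0.05 there were 8 of the 61 genes, against 22.9% of features. The ligase list held Cbl, which ubiquitinates receptor tyrosine kinases and had 0.69, 0.25, 0.09 and 0.44 on A1, A2, B1 and B2 outside the test. Stub1, a chaperone-linked ligase known to act on ERBB2, had 0.14 ± 0.39 (SD, n = 2) and ran from -1.04 on A1 to 0.68 on B1. With the 5 arrays as replicates, which counts arrays of the same preparation as independent, 9.44% of all features passed. Ube4b, a U-box ligase, and Faf1, a p97 factor, also passed there, with limma adjusted p of 0.0399 and 0.0407, at -0.70 and -0.62. On the preparation means neither passed (limma adjusted p = 0.102 and 0.107). Ube4b was below 0 on all arrays. Faf1 was split by dye, at 0.15, 0.01 and 0.30 with Erbb2 cells in Cy3 and -1.38 and -1.41 in Cy5 (unadjusted p of the dye effect 0.000678 in limma, adjusted p = 0.0819).

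**Figure D5:**
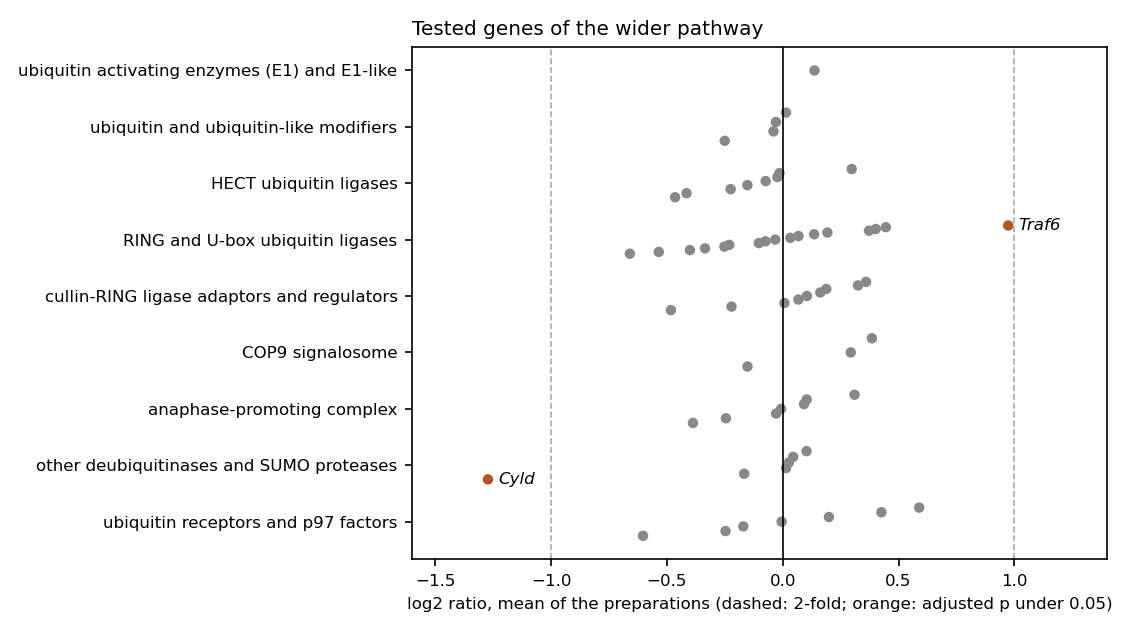
Mean log2 ratio of each tested gene of the 9 lists of the wider pathway (grey, not called; orange, limma adjusted p under 0.05), with vertical offsets only to separate points. Traf6 (0.97) and Cyld (-1.27) are the 2 genes called, and the other genes lie between -0.66 and 0.59.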

How the data were processed

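Images were read with GenePix Pro 3.0, and background-subtracted intensities were scaled by the authors to a median ratio of 1 on each array, per the labels' descriptions. Why some values are empty was not stated there. The deposited values are log2 ratios as far as their spacing shows. From 9.24% (B1) to 30.6% (A2) of an array's values lay on the grid that whole-number ratios make in log2. The shares were 0.969% to 1.24% in natural logarithms and 1.44% to 1.94% in log10. Arrays with Erbb2 cells in Cy3 were turned in sign, and probes of 1 gene symbol were averaged, which gave 18151 features. Platform symbols were checked through Entrez identifiers against RefSeq (GRCm38.p6): all 101 members were found and 0 changed.

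Within a preparation, arrays of one orientation were averaged and then the orientations. For each feature lmFit and eBayes (limma 3.58.1, R 4.3.3) then compared the 2 preparation means with 0, with Benjamini-Hochberg adjustment over 4892 features, a threshold of 0.05 and 10.2 prior degrees of freedom. Dye effect and preparation difference were terms of a limma fit on 5 arrays. The procedure was tested on simulated data that had no dye effect and no noise shared within a preparation, so that test covers neither. Figures used matplotlib 3.10.9 under Python 3.11.15. Members and lists were chosen with earlier results of these data known. Members given in full were to be those past a threshold and, per family, the 3 largest tested ratios and up to 3 members outside that test with 1 sign; further members are given to complete each family. Alternatives covered the unit of replication, scaling, centring, probe summary, missing values, prior, threshold and each array left out.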

Additional observations from a re-analysis of the deposited data

Results flagged for a closer look

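Of the 45 members with values on 4 or 5 arrays, 3 had a single array far from the rest, which chance alone gives for about 1 gene in 20. Ube2h had 0.33 on A3 against -0.77 to -0.53 elsewhere. Ube2l3 had -0.42 on B2 against 0.01 to 0.14, and Usp15 had 0.19 on A1 against -0.24 to -0.16.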

How the results depend on the processing

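In 16 alternatives 0 members were called. Against 332 features called (110 higher, 222 lower), arrays scaled to equal spread gave 124 (30 and 94), quantile scaling 193 (57 and 136), each probe on its own 544 (210 and 334), only probes with both orientations in both preparations 564 (228 and 336), a value in any orientation 149 (38 and 111) and a threshold of 0.1 gave 548 (222 higher). The 5 arrays as replicates called 170 higher. The median of all tested features (-0.0208) was -0.0230 with equal spread, -0.0234 with quantile scaling, -0.0245 with each probe on its own, -0.0242 with both orientations required of a probe, -0.0194 with all 5 arrays required, -0.00874 with any orientation and 0.0107 with arrays centred on their mean. The median of the 15 tested Usp genes was -0.07. It was 0.0256 over 14 probes taken each on its own, and over 14 genes with both orientations required of a probe. Several alternatives tested another set of features, and the cause of these shifts was not tested.

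Leaving out each array in turn gave 198 to 498 features called (41 to 192 higher, 113 to 306 lower), 2 to 258 features and 0 to 2 members with a dye effect, and 1 to 33 features that differed between preparations. Without A1, which removes the array with fewest values, 498 features were called. The genes tested differ from fit to fit. The medians over those tested ran from 0.05 to 0.14 over members, -0.0211 to -0.0102 over all features, 0.00613 to 0.18 for Ube2, -0.12 to 0.0323 for Usp, 0.11 to 0.21 for Fbxo and 0.39 to 0.60 for Cul. Traf6 was not called in 5 of the 14 alternatives that tested it and Cyld in 2 of 16, and no direction reversed. In the fits without A3, B1 or B2 a dye effect no longer averages out.

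No paired analysis was possible because repetition numbers only count arrays within a preparation, and each array already pairs the cell lines. The number of arrays limits the tests: 40 members passed the filter used, 73 passed with any orientation, where the smallest adjusted p was 0.0626, and 28 had no test.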
